A study of Drosophila melanogaster with 55 samples.

Results

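The 10 genes described here lie in heterochromatin beside the centromeres of chromosomes 2 and 3 of Drosophila melanogaster, and several carry very long introns. They were listed as genes of neurons, signalling and physiology, though no function is given here for CG17684 and CG42748. They were 10 of the 94 protein-coding genes whose midpoint fell in the pericentric regions as the study set them, and of 13986 protein-coding genes in the annotation. The list was set by name, and some members were chosen by their HP1 and H3K9me2 coverage, as holders of long stretches that differed between lines, so those 2 readouts are given as a description without a test, while H3K9me3 was tested. The measurement was the percent of each gene's span, start to end in the dm6 genome, that lay inside SICER islands (regions called enriched over input DNA) with a score of at least 200.

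The chromatin came from heads of adult flies of 1 to 2 weeks, mixed in cell type, so that fewer cells with a mark and less of the mark per cell cannot be told apart. HP1 was profiled in the control line w1118 (n = 3), in Top3b26, a Top3b mutant made by remobilizing a P element (n = 3), in AGO2 1-1-7, a CRISPR deletion mutant (n = 2), and in the Top3b26;AGO2 1-1-7 double mutant (n = 2). H3K9me2 and H3K9me3 were profiled in w1118 and Top3b26 (n = 3 each), and Top3b in w1118 (n = 3). FLAG was profiled in flies with a FLAG tag knocked into AGO2 (n = 2) and in untagged w1118 (n = 1). A complementation experiment added 1 HP1 library each of w1118, Top3b26, and Top3b26 flies expressing wild-type Top3b, Top3bY332F (catalytic tyrosine changed) or Top3bdRGG (RGG box deleted) under Act-Gal4, which drives expression in nearly all cells. The methods call the replicates independent ChIP experiments, but nothing says that they came from separate fly cultures, so p-values measure only the spread between these libraries. All 3 contrasts of HP1 used the same w1118 libraries.

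In flies, constitutive heterochromatin flanks the centromeres, is rich in transposon remnants, carries methylated lysine 9 of histone H3 and binds HP1 through that mark. Genes that live there are usually transcribed in that setting, and many span far more DNA than their relatives on the chromosome arms because their introns have filled with repeats. AGO2 is the Argonaute protein of the small interfering RNA pathway, and Top3b is a topoisomerase with both DNA and RNA as substrates.

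Several facts of the whole series bear on every value below. The HP1 lists covered 57.3 to 59.7% of the pericentric regions in w1118, 27.3 and 32.6% in AGO2 1-1-7, and 58.3 and 63.0% in the double mutant. In Top3b26 they covered 48.3 and 49.1% in replicates 1 and 2 and 68.7% in replicate 3, which stands apart from the other libraries of its line. The smallest distance between islands was 1100 bp in replicates 2 and 3 of w1118 and Top3b26 and 700 bp in the other HP1 lists, so the lists were not all made with the same joining of neighbouring islands. Read depth is unknown from the island lists, and its part in any difference was not tested.

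The set holds some of the longest genes of the fly. Myo81F, an unconventional myosin, spans 1966 kb (chr3R:567076-2532932, plus strand) in 22 exon blocks and was the longest of the 94 genes. Lovit, the vesicular histamine transporter that photoreceptors need for transmission, spans 434.0 kb (chr3L:25236940-25670980, minus strand). CG17684 spans 396.0 kb (chr2R:1866080-2262115, minus strand), and DIP-lambda, a neuronal cell-surface protein of the immunoglobulin superfamily that partners Dpr proteins, spans 379.1 kb (chr2R:326768-705848, plus strand). These genes held ranks 1 and 3 to 5 by length. Snap25, a SNARE protein of synaptic vesicle fusion, spans 225.0 kb (chr3L:24074180-24299205, plus strand). Gprk1, a kinase of G protein-coupled receptors, spans 148.8 kb (chr2R:4322295-4471060, minus strand). Nvd, the neverland oxygenase that opens ecdysone synthesis by converting cholesterol to 7-dehydrocholesterol, spans 76.8 kb (chr3L:24324866-24401655, plus strand). The last 3 were short: CG42748 with 35.0 kb (chr2L:22131221-22166221, plus strand), the chitinase gene Cht10 with 26.3 kb (chr2L:22999574-23025915, minus strand) and cta, the G alpha subunit concertina of gastrulation, with 11.1 kb (chr2L:22981816-22992951, plus strand). Exons made up 0.33% of Myo81F and 0.45% of lovit but 40.6% of CG42748. The longest single intron, in Myo81F, was 268.1 kb. Repeat-masked bases made up 25.0 to 46.6% of each gene. The protein-coding genes dunk and Clamp lie within or across CG42748, so its islands cannot be assigned to it alone.

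In w1118 heads, HP1 islands covered 14.8 to 73.9% of each gene. Gprk1 was the most covered at 71.0, 73.9 and 71.5% in replicates 1 to 3, and lovit followed at 63.3, 69.6 and 71.3%. Snap25 had 59.8, 63.0 and 62.7%, and its 3 libraries lay closer together than those of lovit. Cta had 47.5, 72.6 and 62.7%, the second widest spread of the set. CG17684 had 56.7, 52.5 and 62.7%, and nvd 52.1, 51.7 and 56.9%. Myo81F had 52.7, 51.0 and 52.8%, which made it the gene with the least spread. DIP-lambda had 49.5, 43.9 and 47.7% and Cht10 53.6, 32.0 and 46.0%. CG42748 was lowest at 14.8, 40.5 and 40.8%, with replicate 1 far under the other libraries. Ordered by mean, Gprk1 (72.1% ± 1.55, SD, n = 3) and lovit (68.1% ± 4.21) overlapped in range, as did the neighbours from Snap25 to nvd. The median of the 10 means was 55.4%, beside 57.0% over all 94 pericentric genes.

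Both methylation marks reached levels like those of HP1 except over cta and CG42748. H3K9me3 in w1118 covered 69.8% ± 6.79 of lovit (SD, n = 3), 66.8% ± 2.81 of Gprk1, 61.9% ± 4.31 of Snap25 and 56.3% ± 4.82 of Myo81F. Cta, which HP1 covered at 60.9% ± 12.7, had 28.1% ± 8.30 for H3K9me2 and 30.8% ± 6.50 for H3K9me3. CG42748 had 14.4% ± 3.64 for H3K9me2 and 5.87% ± 5.08 for H3K9me3. Of the length that lay in HP1 islands of all 3 w1118 lists, 28.1% in cta and 29.7% in CG42748 lay in no H3K9me2 or H3K9me3 island of w1118. The same share was at most 0.534% in each of the other 8 genes. In cta this HP1 without either mark included the first exon block (778 bp), which was in HP1 islands in all 10 HP1 lists of the 4 lines and in no H3K9 list of either line.

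HP1 was far lower over the set in AGO2 1-1-7 heads, and this was the main difference between the lines. Over the 10 genes the mean coverage was 54.9% in w1118 and 29.3% in AGO2 1-1-7, a mean difference of -25.6 percentage points. Both AGO2 libraries were lower than all 3 w1118 libraries in 9 of 10 genes, and the same held for 68.7% of the 83 pericentric genes with an island. The share was 94.3% of the 35 pericentric genes over 20 kb, a length that 9 of the 10 genes exceed. The median difference was -26.8 points in the set, -26.8 over the 83 pericentric genes and -28.1 over the 35 genes over 20 kb. HP1 was used to choose members, so the counts describe the set and are no test.

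**Figure D1:**
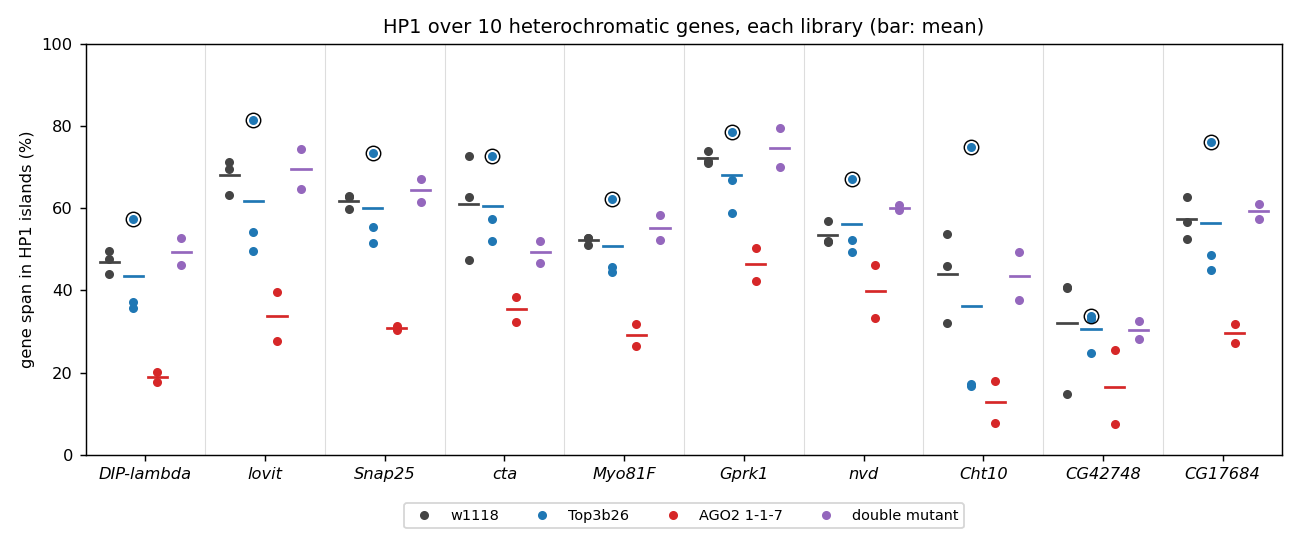
Percent of each gene's span in HP1 islands (vertical axis) for the 10 genes (horizontal axis), 1 point per library and a bar at each line's mean. Circled points are Top3b26 replicate 3. Both AGO2 1-1-7 points lie under all w1118 points in every gene but CG42748, and the double mutant lies near w1118.

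DIP-lambda had 17.7 and 20.2% in the AGO2 1-1-7 libraries, well under every w1118 library. Cht10 had 17.8 and 7.6%, a mean difference of -31.2 points and the largest loss relative to its w1118 level, at a ratio of 0.29. In lovit, the photoreceptor transporter, coverage was 27.8 and 39.5%, a difference of -34.4 points. In Snap25 it was 30.4 and 31.4%, a difference of -30.9 points, with both libraries close together. Myo81F had 26.4 and 31.7%, cta 32.3 and 38.5%, and CG17684 27.2 and 31.8%. Gprk1 had the highest level left, with 42.3 and 50.4% and a ratio to w1118 of 0.64. The smallest difference was in nvd, -13.8 points from 46.2 and 33.3%, and there the groups still did not overlap. CG42748 had 7.4 and 25.4%, and its range overlapped the w1118 range because of the 14.8% of w1118 replicate 1. Cut to equal numbers of islands per list, the count was 7 of 10 genes, with no share over all pericentric genes computed.

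The HP1 that AGO2 1-1-7 lacked lay in many separate pieces. Sequence in islands of all 3 w1118 lists and of neither AGO2 list came to 513.4 kb in 412 pieces and 9 genes, which was 29.5% of the 1742 kb in islands of all w1118 lists. Sequence with the opposite pattern came to 0.7 kb, all of it in Myo81F. The share lost was 42.0% in DIP-lambda, 43.9% in Cht10, 35.9% in Snap25, 29.6% in CG17684, 28.5% in Myo81F, 28.4% in cta, 28.2% in lovit, 20.9% in Gprk1, 11.6% in nvd and 0% in CG42748. The longest stretch was 9.5 kb in DIP-lambda (chr2R:479701-489200), 152.9 kb downstream of the start. It was followed by 7.0 kb in lovit (chr3L:25567201-25574200), of which 91.7% was an annotated gypsy retrotransposon. The longest in Snap25 was 6.6 kb (chr3L:24148701-24155300) with no annotated transposon, and that in CG17684 was 5.0 kb (chr2R:1906601-1911600), of which 86.5% was an F element. None of these 4 stretches held exonic sequence, whereas the longest in Cht10, 1527 bp (chr2L:22999574-23001100), held 1393 bp of its last exon block.

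In AGO2 1-1-7, repeat-masked bases lay in HP1 islands more often than other bases did, as they also did in the complementation libraries. Repeat-masked bases were covered 1.40 points less than the other bases of the same genes in w1118 (libraries -2.65 to 0.893), and 8.41 points more in AGO2 1-1-7 (libraries 7.27 and 9.54). In AGO2 1-1-7 the difference was above 0 in 9 of 10 genes, with the largest in nvd at 22.4 points, and Snap25 was the exception at -0.617. In w1118 the difference was above 0 in 7 of 10 genes, and the negative mean came with -19.2 points in Snap25 and -11.3 in Cht10. In the complementation experiment the mean difference was 6.30 points in w1118 and 6.80 to 9.96 in the other lines. The double-mutant libraries had -6.31 and 10.5 points. No share over all pericentric genes was computed for these counts. Over bases outside repeats alone, the mean difference between AGO2 1-1-7 and w1118 was -29.2 points. How reads from repeats were mapped affects these values, and its part was not tested.

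The double mutant did not show the loss of the AGO2 single mutant. Mean coverage of the set was 55.6%, a mean difference from w1118 of 0.678 points, and 26.3 points above AGO2 1-1-7. Both double-mutant libraries were above both AGO2 1-1-7 libraries in 10 of 10 genes, as in 75.9% of the 83 pericentric genes. DIP-lambda had 52.7 and 46.1%, lovit 74.3 and 64.6%, and Snap25 67.2 and 61.5% in double-mutant replicates 1 and 2. These ranges overlapped those of w1118. Only nvd lay wholly above w1118, with 60.7 and 59.5% and a difference of 6.53 points, beside 7.23% of pericentric genes, and 0 of 10 lay wholly below, beside 2.41%. The largest difference downward was in cta, with 51.9 and 46.6% and -11.7 points. Replicate 1 lay inside the w1118 range and replicate 2 just under the lowest w1118 library, at 47.5%. The count of genes wholly outside the w1118 range was 6 without double-mutant replicate 2, all above it. It was 3 without double-mutant replicate 1 and 3 without w1118 replicate 1, each with 2 genes below and 1 above. Without w1118 replicate 3 it was 2, all above. No share over all pericentric genes was computed for these counts.

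HP1 in Top3b26 depended on 1 library. In replicates 1 and 2, coverage was 35.8 and 37.3% in DIP-lambda, 49.6 and 54.1% in lovit, 51.5 and 55.4% in Snap25, 45.7 and 44.4% in Myo81F and 16.7 and 17.2% in Cht10. In these 5 genes both libraries were below all 3 w1118 libraries. Replicate 3 had 57.5% in DIP-lambda, 81.4% in lovit, 73.6% in Snap25, 62.2% in Myo81F and 74.9% in Cht10, all above the w1118 libraries. With all 3, the mean difference over the set was -2.47 points and 0 of 10 genes had lines that did not overlap, as did 0% of pericentric genes in either direction. Without Top3b26 replicate 3 the mean difference was -10.1 points and 7 of 10 genes lay wholly below w1118. No share over all pericentric genes was computed for that count. Replicates 1 and 2 covered 48.3 and 49.1% of all pericentric sequence, less than each w1118 list. Within the lists of 700 bp smallest distance, which leave replicate 1 of each line, it was -8.89 points, and within the lists of 1100 bp it was 0.747 points. Same-numbered libraries of the 2 lines deviated together, and by number the mean differences were -8.89, -8.73 and 10.2 points.

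H3K9me2 was slightly lower over the set in Top3b26, with wide overlap between the lines. The mean difference was -3.47 points, and 8 of 10 genes were lower by their means, beside 55.7% of the 70 pericentric genes with an island. The median difference was -3.43 points in the set and -0.889 over those 70 genes. Over the 35 pericentric genes over 20 kb it was -3.46 points, close to that of the set. Wholly below w1118 lay 0 of 10, beside 1.43%. Cht10 had 55.5, 39.9 and 38.4% in w1118 and 46.7, 16.0 and 26.2% in Top3b26, a difference of -15.0 points with replicate 1 of Top3b26 inside the w1118 range. CG42748 had 12.0, 18.6 and 12.6% against 4.6, 8.6 and 12.6%, and cta went the other way with 23.3, 23.3 and 37.7% against 40.4, 26.9 and 35.0%. Nvd had a difference of 0.0239 points. Same-numbered libraries deviated together for this mark, and by number the mean differences were -2.14, -6.45 and -1.81 points. Top3b26 was lower in all 3 same-numbered comparisons in 4 genes, DIP-lambda, lovit, Snap25 and Cht10, and higher in all 3 in 0. No share over all pericentric genes was computed for these counts. H3K9me2 was used to choose members, so these values carry no test. Leaving out single libraries moved the mean difference between -7.95 and 0.353 points.

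The changed H3K9me2 stretches of Cht10 and CG42748 lay largely over exons. Sequence in H3K9me2 islands of all w1118 lists and of no Top3b26 list came to 22.1 kb in 8 genes, or 1.24% of the reference length, and there was none of the opposite kind. In Cht10 it was a single stretch of 2800 bp (chr2L:23002901-23005700), of which 1823 bp were exonic, and it made up 31.5% of the H3K9me2 length common to the w1118 lists. Exon blocks 8 to 10 of Cht10 were in H3K9me2 islands in 3 of 3 w1118 lists and 0 of 3 Top3b26 lists, while for H3K9me3 they were in 2 and 3 lists. In CG42748 it was a stretch of 2500 bp (chr2L:22141801-22144300) with 2450 exonic bases. The longest stretch of Myo81F was 1.9 kb (chr3R:1630001-1631900) with no exonic base. The windows below, 300 bases each from the RefSeq dm6 genome on the strand of the gene, show exons in capitals at an exon edge within the stretches of Cht10 (chr2L:23003841-23004140, minus strand, 243 exonic bases, with a short intron between exon blocks 9 and 10) and CG42748 (chr2L:22141801-22142100, plus strand, 270 exonic bases). They are shown because they are the exonic parts without the mark in Top3b26.
Cht10: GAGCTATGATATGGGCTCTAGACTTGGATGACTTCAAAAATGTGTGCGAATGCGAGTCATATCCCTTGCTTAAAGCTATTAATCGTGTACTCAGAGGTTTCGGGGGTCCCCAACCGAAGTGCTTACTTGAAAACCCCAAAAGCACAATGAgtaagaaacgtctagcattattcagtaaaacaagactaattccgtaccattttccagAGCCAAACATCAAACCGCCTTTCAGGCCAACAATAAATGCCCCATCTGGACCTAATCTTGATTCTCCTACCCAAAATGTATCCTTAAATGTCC
CG42748: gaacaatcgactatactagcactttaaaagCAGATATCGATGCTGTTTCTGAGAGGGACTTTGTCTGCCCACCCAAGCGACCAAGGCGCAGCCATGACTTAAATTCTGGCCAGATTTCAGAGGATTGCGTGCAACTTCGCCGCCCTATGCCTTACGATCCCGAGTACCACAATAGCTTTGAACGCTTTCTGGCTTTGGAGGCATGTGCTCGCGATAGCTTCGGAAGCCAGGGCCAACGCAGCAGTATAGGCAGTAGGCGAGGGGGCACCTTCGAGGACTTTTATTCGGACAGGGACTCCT

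H3K9me3, which was not used to choose the genes, did not differ detectably between Top3b26 and w1118. Lovit had 62.1, 75.0 and 72.2% in w1118 and 68.7, 67.0 and 67.4% in Top3b26. Snap25 had 57.2, 65.8 and 62.6% against 62.9, 59.8 and 61.7%, and Gprk1 63.6, 68.8 and 68.0% against 65.0, 67.0 and 61.2%. In lovit and Snap25 the 3 Top3b26 libraries lay inside the w1118 range, and in Gprk1 replicate 3 lay under it. The labels of Top3b26 replicate 2 conflict, since the description names H3K9me2 while the title and the antibody name H3K9me3, which was followed here. Without that library the mean difference over the set was -0.406 points. With all libraries it was -0.562 points, the largest for single genes were 4.49 in cta and -3.92 in Cht10, and 0 of 10 genes had lines that did not overlap, beside 2.86% of the 70 pericentric genes lower and 1.43% higher. In a two-sided exact permutation test the unadjusted p of the 10 genes was 0.3 to 1, and every Benjamini-Hochberg adjusted p over the 70 genes was 1, where 3 against 3 libraries cannot go below an unadjusted 0.1. With limma, 0 of 70 genes passed an adjusted p of 0.05 and 3 had an unadjusted p under 0.05. The size of the mean difference depended on the island cutoff and on single libraries: it was -3.95 points, with 9 of 10 genes lower, when lists were cut to equal numbers of islands, -4.01 without w1118 replicate 1 and 1.69 without w1118 replicate 2.

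**Figure D2:**
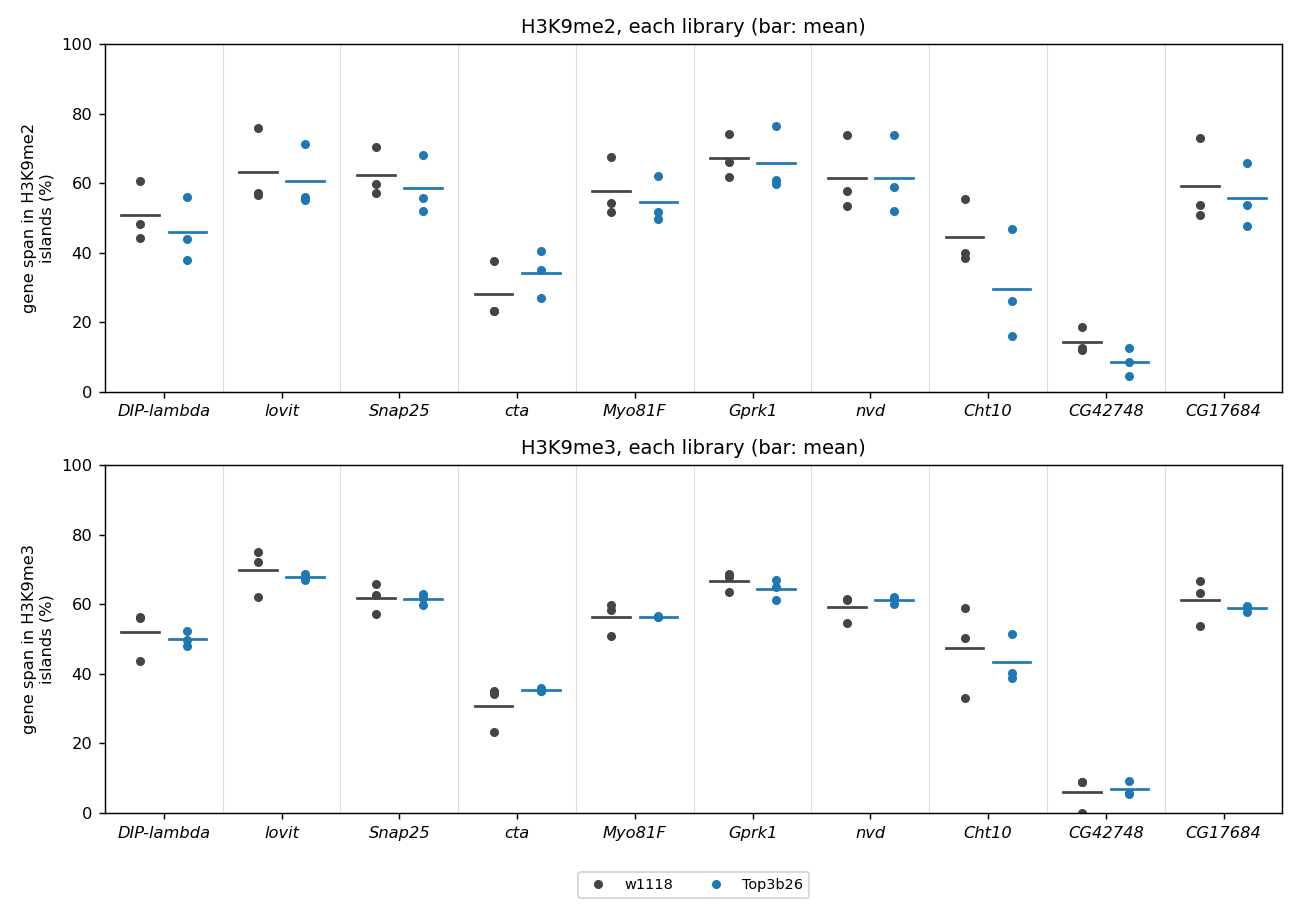
Percent of each gene's span in H3K9me2 islands (top) and H3K9me3 islands (bottom) for the 10 genes, 1 point per library and a bar at each line's mean, w1118 and Top3b26. The lines overlap in every gene in both panels.

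Exons were less covered than introns in most of the genes, for HP1 and for both marks. In w1118, introns were covered 28.8 points more than exons by HP1 on average over the set (libraries 26.1 to 34.0), 28.3 points more by H3K9me2 (24.9 to 32.1) and 29.2 points more by H3K9me3 (25.3 to 34.6). Introns were higher in 8 of 10 genes for all 3 readouts. The difference was widest for HP1 in CG17684 and nvd: nvd exons had 0% in all 3 lists against 53.3, 52.9 and 58.2% of introns, and CG17684 exons had 4.2, 1.0 and 1.0% against 57.1, 53.0 and 63.2%. Snap25 exons had 17.7, 24.0 and 12.0% and its introns 60.2, 63.4 and 63.2%. Exons were not free of HP1 everywhere, with means of 44.0% in lovit and 42.3% in Gprk1, and lovit exons had 62.6% for H3K9me3 against 69.8% of its introns. Introns exceeded exons for HP1 in 22 of 22 pericentric genes over 50 kb, the 7 of the set included, with a median of 32.9 points. In the 15 of these outside the set the count was 15 and the median 35.4 points. It was so in 52 of 89 pericentric genes with an intron.

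**Figure D3:**
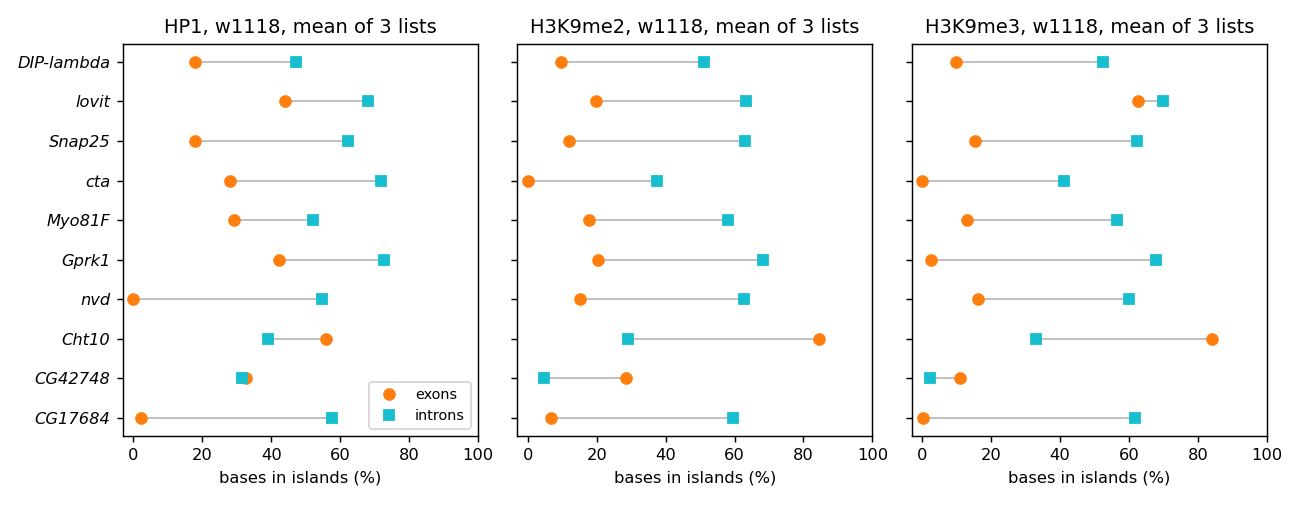
Percent of exonic (circles) and intronic (squares) bases in islands of HP1, H3K9me2 and H3K9me3 in w1118, mean of 3 lists, for each gene. Introns lie to the right of exons in all genes except Cht10 and CG42748.

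Cht10 and CG42748 were the exceptions by their w1118 means, though for HP1 not in every library. Cht10 exons were covered by H3K9me3 at 65.7, 94.9 and 91.7% and its introns at 20.3, 45.0 and 34.1%, so exons were higher in each list. For H3K9me2 its exons had 94.9, 88.6 and 70.0%. For HP1 its exons had 89.6, 18.9 and 59.2% and its introns 39.6, 37.1 and 40.9%, so introns were higher in replicate 2. In AGO2 1-1-7 the HP1 coverage of Cht10 exons was 0% in both lists. For HP1, CG42748 exons exceeded introns in replicates 1 and 2 and not in replicate 3. In the complementation w1118 library, introns had more HP1 than exons in 10 of 10 genes. There HP1 covered 76.1% of introns and 44.8% of exons in Cht10, and 38.3 and 19.9% in CG42748.

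Of the 117 exon blocks of the set, 67 were in none of the 3 HP1 lists of w1118 and 17 were in all 3. In AGO2 1-1-7, 101 were in neither of the 2 lists, which is easier to meet with fewer lists. No share over all pericentric genes was computed for these counts. A block was counted as inside when at least 50% of it was covered. All 6 blocks of nvd and 13 of 15 of CG17684 were in no w1118 list, as were 5 of 6 of cta, where only the first block was inside. In Snap25, blocks 1, 2 and 5 were inside in all 3 w1118 lists, and of these only block 1 was inside in the AGO2 1-1-7 lists. The 1525 bp last block of Snap25 was in no HP1 list of the 4 lines and in no H3K9 list.

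The gap around exons was narrow. Over the 7 genes longer than 50 kb, HP1 in w1118 covered 22.7% of exonic bases (libraries 15.6 to 31.3), 41.4% of intronic bases within 0.5 kb of an exon (35.0 to 49.3), 58.0% from 0.5 to 1 kb (55.9 to 59.6) and 60.3% from 1 to 2 kb (59.8 to 60.9). Further away it stayed between 54.4 and 60.4% up to more than 50 kb from any exon. The bins pool the bases of the genes, so Myo81F (1966 kb, the next being lovit with 434.0 kb) weighs most in them. No profile per gene is given. H3K9me3 rose from 14.5% over exons to 33.3% within 0.5 kb and 63.3% from 1 to 2 kb. AGO2 1-1-7 kept the shape at a lower level, with 8.68% over exons, 19.7% within 0.5 kb and 32.9% from 1 to 2 kb. In the double mutant the same bins had 15.1, 33.6 and 65.3%.

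**Figure D4:**
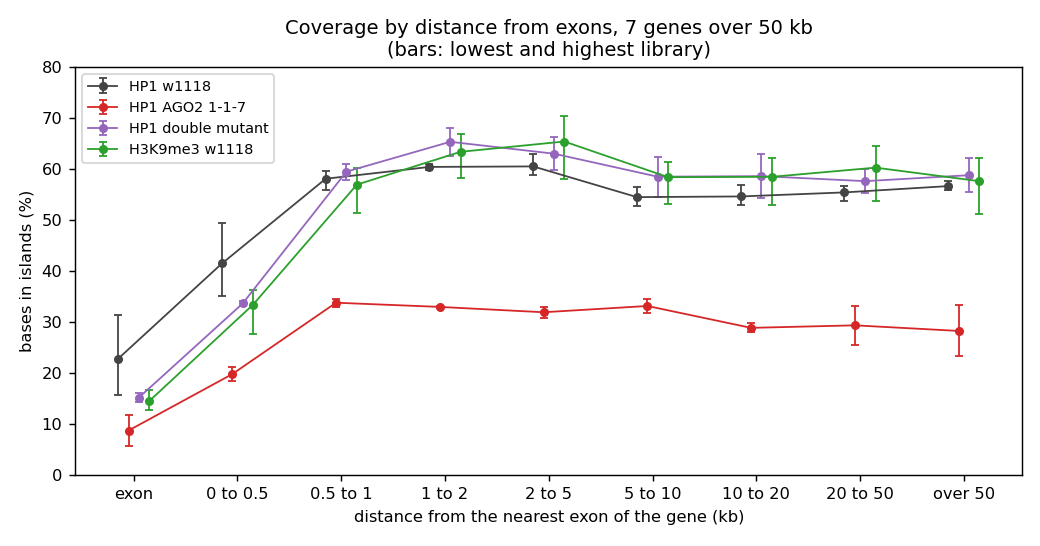
Percent of bases in islands (vertical axis) over exons and over intronic bases binned by distance in kb from the nearest exon of the same gene (horizontal axis), 7 genes over 50 kb pooled. Points are line means and bars run from the lowest to the highest library. Coverage climbs within about 1 kb of an exon and then levels off, at a lower plateau in AGO2 1-1-7.

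HP1 islands lay over the start sites of some genes of the set and not of others. The window from 250 bases before to 50 bases after the annotated start was inside HP1 islands in all 10 HP1 lists of the 4 lines for Snap25 and CG42748 and in 9 of 10 for cta and Gprk1. It was in none for DIP-lambda, nvd and CG17684, in 1 for Cht10, in 2 for Myo81F and in 5 for lovit. So 4 genes had a covered start in all w1118 lists, and in 3 of these it was also covered in both AGO2 1-1-7 lists. Over all 94 pericentric genes, 44 starts were covered in all w1118 lists and 35 of these (79.5%) in both AGO2 1-1-7 lists. H3K9me2 and H3K9me3 were seldom at starts: of the 12 lists, 8 covered the start of Snap25 and 3 that of CG42748, and 0 covered the majority of any other start of the set.

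The starts of Snap25 (chr3L:24073930-24074229, HP1 in 10 of 10 lists), cta (chr2L:22981566-22981865, 9 lists), lovit (chr3L:25670931-25671230, minus strand, 5 lists) and nvd (chr3L:24324616-24324915, 0 lists) are shown from RefSeq dm6 on the strand of the gene, to set starts with and without HP1 side by side. Capitals mark 3 short motifs on either strand, spelled out after the sequences.
Snap25: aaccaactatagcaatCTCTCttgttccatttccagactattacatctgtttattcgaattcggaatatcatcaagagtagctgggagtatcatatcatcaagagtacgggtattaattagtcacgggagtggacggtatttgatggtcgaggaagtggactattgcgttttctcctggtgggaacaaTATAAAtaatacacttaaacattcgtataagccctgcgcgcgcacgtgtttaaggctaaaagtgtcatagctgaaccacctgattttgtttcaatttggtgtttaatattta
cta: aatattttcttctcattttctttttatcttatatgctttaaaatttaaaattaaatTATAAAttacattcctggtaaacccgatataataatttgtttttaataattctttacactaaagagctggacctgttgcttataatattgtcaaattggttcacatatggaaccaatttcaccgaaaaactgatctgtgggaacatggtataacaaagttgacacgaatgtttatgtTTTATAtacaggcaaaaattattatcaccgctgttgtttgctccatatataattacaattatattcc
lovit: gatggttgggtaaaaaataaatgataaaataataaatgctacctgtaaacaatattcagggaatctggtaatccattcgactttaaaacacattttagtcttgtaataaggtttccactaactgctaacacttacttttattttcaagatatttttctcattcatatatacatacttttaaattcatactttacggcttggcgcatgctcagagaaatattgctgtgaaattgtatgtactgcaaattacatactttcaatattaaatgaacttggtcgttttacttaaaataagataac
nvd: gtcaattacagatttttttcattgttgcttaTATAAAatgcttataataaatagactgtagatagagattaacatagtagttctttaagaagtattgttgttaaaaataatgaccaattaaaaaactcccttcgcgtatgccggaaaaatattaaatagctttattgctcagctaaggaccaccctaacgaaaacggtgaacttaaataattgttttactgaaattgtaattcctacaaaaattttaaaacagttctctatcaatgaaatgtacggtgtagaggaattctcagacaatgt
GAGAG, the GAGA factor motif, was in 3 of the 10 windows (DIP-lambda, Snap25 and Cht10), beside 29.7% of 13945 protein-coding starts and 26.6% of the 94. TATAAA, the sequence of the TATA box, was in 7 of 10, beside 45.8 and 56.4%. It was counted on either strand and anywhere in the window, so a match need not be a working TATA box. TATCGATA, the motif of the DNA replication-related element, was in 0 of 10, beside 9.36 and 6.38%. Snap25 held the first 2 motifs once each, cta held the TATA box at 2 places and nvd at 1, and lovit held no match.

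Top3b and FLAG-AGO2 islands were sparse over the set. Top3b covered 0 to 0.4% of each gene in replicate 1, 0 to 10.7% in replicate 2 and 0 to 15.4% in replicate 3, with nvd the most covered in the last 2 and cta in no list. The median of the gene means was 2.23%, beside 0% over all 94 genes, whose median length was only 10.1 kb. Of all pericentric sequence, the Top3b lists covered 0.0729, 3.71 and 5.91% in replicates 1 to 3. The part of gene length in this difference was not tested. FLAG covered at most 8.9% (CG42748) in FLAG-AGO2 replicate 1 and at most 0.5% (CG17684) in replicate 2, whose list is headed as a difference from the untagged line. Untagged w1118 had 11.1% in CG42748 and 6.2% in Snap25, against 4.2% for Snap25 in FLAG-AGO2 replicate 1. Set beside the untagged library, FLAG-AGO2 replicate 1 was not higher in either gene, and replicate 2 was not compared again because its list is already such a difference.

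In the complementation experiment, with 1 library per line and so no replicate error, Y332F had the least HP1 over most of the set. Top3b26 was lower than its w1118 in 9 of 10 genes and by 10 points or more in 4, beside 34.1% of 85 pericentric genes. Lovit had 84.8% in w1118, 71.8% in Top3b26, 82.8% with wild-type Top3b, 58.7% with Y332F and 70.0% with dRGG. Snap25 had 81.2, 74.6, 78.5, 58.8 and 69.6% in the same order, and DIP-lambda 58.7, 53.7, 57.0, 42.8 and 48.1%. Flies with wild-type Top3b were higher than Top3b26 in 9 of 10 genes (median 3.97 points) and by 10 points or more in 2, beside 16.7%. Y332F was lower than wild-type Top3b in 9 genes, and by 10 points or more in 8, beside 45.9% of pericentric genes, with a median of -16.0 points against -9.20 over those genes. The dRGG line was lower than wild-type Top3b in 9 genes but by 10 points or more in 1, beside 28.6%. CG42748 went against the rest, with 27.4% for wild-type Top3b, 29.7% for Y332F and 36.5% for dRGG. The Y332F list covered 52.8% of all pericentric sequence against 67.8% for wild-type Top3b, and the part of that in these values was not tested.

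**Figure D5:**
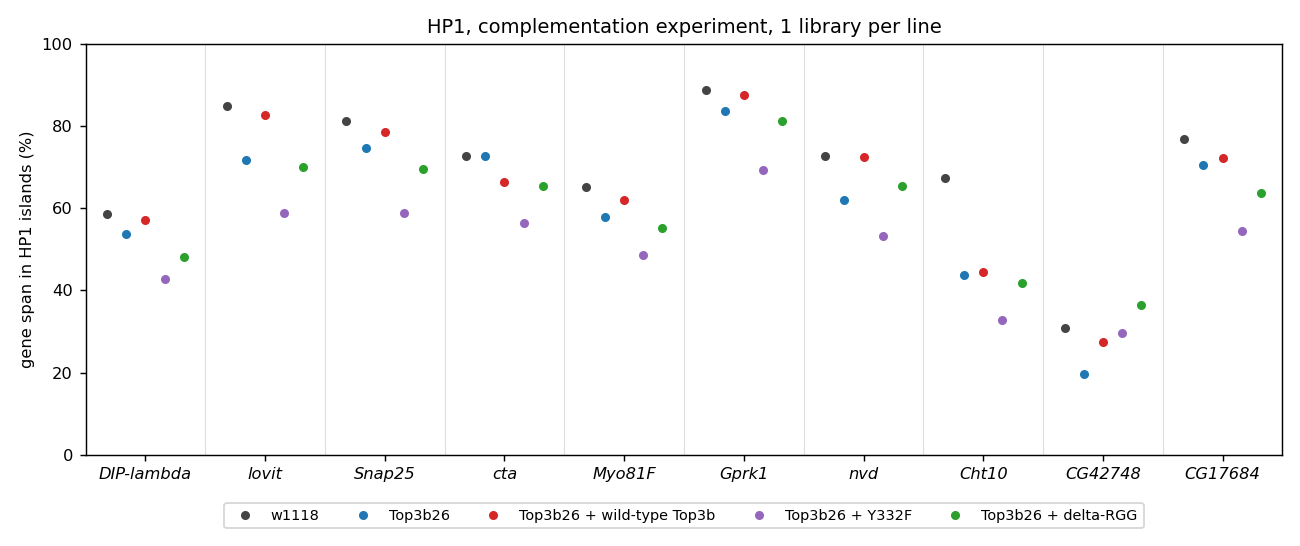
Percent of each gene's span in HP1 islands for the 10 genes in the 5 lines of the complementation experiment, 1 library per line. Y332F is the lowest line in DIP-lambda, lovit, Snap25, Myo81F, Gprk1, nvd, Cht10, CG17684 and cta.

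Relatives of these genes elsewhere in the genome carried little HP1. Of 48 genes of the same families outside the pericentric regions (DIP proteins, SNAREs, G alpha subunits, GPCR kinases, unconventional myosins, vesicular transporters, chitinases and ecdysone synthesis enzymes), 21 had no HP1 in w1118, 8 had 10% or more, and the median was 0.363%. The 10 DIP relatives had at most 5.37%, and the 5 ecdysone enzymes on the arms had 0%. The enzyme gene spok, which is pericentric like nvd, had 54.0% HP1 in w1118 and 43.4% in AGO2 1-1-7. Among SNAREs, Snap29 reached 66.7% over 1.28 kb and Snap24 had 0%. For 8 pericentric housekeeping genes, AGO2 1-1-7 was wholly below w1118 in 6, with a median difference of -23.3 points, close to that of the 10 genes.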

How the data were processed

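ChIP-seq was done on heads of 55 samples, of which 33 with an island list were analysed and 22 were inputs. The authors sequenced reads and mapped them to dm6; the methods name Bowtie, and the submitters' processing notes name Bowtie2, SAMtools 1.8, SICER and bedtools. Reads that mapped to several places were down-weighted or dropped. The deposited lists give SICER islands, each with a score that the authors computed against input, in windows of 100 bp; scores are not scaled to depth, so coverage was used rather than score. Per the labels, 1 input served both H3K9 marks of each line, and no further input is listed for the other replicates of these marks. The w1118 input also served Top3b replicate 1. The H3K9me3 p-values therefore hold no spread between inputs, and a difference between the lines cannot be told apart from one between their inputs. Islands with a score of 200 or more were kept. Gene spans, exons (merged over transcripts) and transposons came from the BDGP6 annotation, of the same assembly as dm6, and repeat masking and sequence from RefSeq. Stretches are bases in islands of every library of one line and of none of the other, with pieces within 600 bp joined.

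The genes named are the 10 listed; members, gene lists and comparisons were chosen with earlier results of these data known. Of 50 relatives listed, 1 could not be matched by symbol. HP1 and H3K9me2 are described by counts of genes whose libraries do not overlap. H3K9me3 was tested by exact permutation with Benjamini-Hochberg adjustment over the 70 pericentric genes with an island, and by limma 3.58.1 in R 4.3.3; Python 3.11.15 did the rest, and scripts were tested on simulated data. Same-numbered libraries of w1118 and Top3b26 deviated together over pericentric genes (correlations 0.34 to 0.45 for HP1 and 0.43 to 0.52 for H3K9me2, all above 0.1), so they were also compared by number. For H3K9me3 the correlations were -0.34 to 0.26. The study states no pairing. For HP1 the smallest distance between islands also went by number, so a shared batch and the making of the lists cannot be told apart. AGO2 1-1-7 and the double mutant share 2 numbers with w1118 and were not treated as paired. Their same-number correlations with w1118 for HP1 were -0.057 and 0.037 for AGO2 1-1-7. For the double mutant they were 0.27 and 0.30, also above 0.1. Alternatives covered the score minimum, joining of gaps, list length, introns, repeats, single libraries and the replicate block.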

Additional observations from a re-analysis of the deposited data

How the results depend on the processing

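The 5 contrasts and the intron-exon difference were recomputed under the alternatives, and 101 of the values kept their direction and moved by less than the SD between libraries or, for counts, by less than 1.5 times, 24 moved further and 10 changed sign. For AGO2 1-1-7 against w1118, the mean difference over the 10 genes was below 0 in every alternative, at -28.7 with a minimum score of 400, -29.2 over bases outside repeats and -22.8 with only lists of 700 bp smallest distance (an alternative chosen after seeing the data); leaving out single libraries gave -27.3 to -23.9, with 9 to 10 genes not overlapping.

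For Top3b26 HP1, lists of 1100 bp smallest distance gave 0.747 and 1 gene not overlapping, and leaving out single libraries gave -10.1 to 2.15 and 0 to 7 genes. For the double mutant, the mean was -0.604 and the count 0 over bases outside repeats. The count was 2 with gaps of up to 1100 bp closed, all higher, and 6 with lists of 700 bp only, 1 lower and 5 higher. With single libraries left out, the mean was -1.34 to 2.69 and the count 1 to 6 genes, in both directions. For H3K9me2, the count was 1 with a minimum score of 400, with equal numbers of islands and over bases outside repeats, and leaving out single libraries gave -7.95 to 0.353 and 0 to 5 genes. For H3K9me3, the mean was 0.307 with a minimum score of 400, -2.09 (8 genes lower, 1 not overlapping) with no minimum score and -3.95 (9 lower, 4 not overlapping) with equal numbers of islands, and leaving out single libraries gave -4.01 to 1.69 and 0 to 5 genes. The cause of these shifts was not tested, and no share over all pericentric genes was computed for these counts. The intron-exon difference of HP1 in w1118 stayed between 25.9 and 30.1 points. The replicate block gave -2.47 for HP1, -3.47 for H3K9me2 and -0.562 for H3K9me3 in Top3b26. With 3 libraries on each side these equal the main values by arithmetic, as does the limma mean for H3K9me3, so they are no check. For AGO2 1-1-7 (-24.3) and the double mutant (1.99) the block equals leaving out w1118 replicate 3. These values are counted among the 101. Same-numbered libraries deviated together for HP1 and H3K9me2 of Top3b26 and w1118 and, less strongly, for HP1 of the double mutant and w1118. The study states no pairing. Island lists give no read depth, which limits how firmly a difference of a few points can be read.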
